A study of Mus musculus with 4 samples.

Results

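The MYC, MAX and MXD network is a set of 10 transcription factor genes, Myc, Mycn, Mycl, Max, Mnt, Mxd1, Mxd3, Mxd4, Mxi1 and Mlx, taken by gene name from the 24319 genes of the deposited tables. All 10 had 1 row in each of the 4 libraries. RNA had been sequenced from 2 normal prostates of wild-type males aged 22 weeks and from 2 late-stage prostate tumours of TRAMP males labelled 24 weeks old, with 24 to 28 weeks in the labels' protocols. Every animal was an F1 of C57BL/6 and FVB, and the tumour mice were heterozygous for SV40 T antigen under the rat probasin promoter, which is active in prostate epithelium, so the normal mice differ from them by the transgene, by age and by the presence of a tumour. The labels do not say that the 2 tumours came from separate mice, and the p-values below therefore measure the spread between these samples. By its title the series concerns TET enzymes and hydroxymethylation in this model, and the network was compared here between the tumours and the normal tissue.

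MYC, MYCN and MYCL are closely related proteins that bind DNA only as partners of MAX. The pair binds the E-box CACGTG and activates genes of ribosome production, metabolism and growth. MXD1, MXD3, MXD4, MXI1 and MNT compete for MAX at the same sites and recruit SIN3 and histone deacetylases, which repress transcription, while MLX is a MAX-like partner of MLXIP and MLXIPL and of some MXD proteins. In prostate, MYC is a known driver of adenocarcinoma and MYCN of neuroendocrine tumours, and in TRAMP mice the T antigen inactivates the RB and p53 proteins, RB being the repressor of the E2F factors that control S phase genes.

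The promoters of Mycn and Mxd3 are shown first because these genes had the largest differences in the comparison below. They are the 250 bases before the RefSeq start (GRCm38.p6), 5′ to 3′ on the minus strand, chr12:12941837-12942086 for Mycn and chr13:55329732-55329981 for Mxd3. Capitals mark E2F-type octamers (TTTGGCGC, TTTCGCGC, TTTCCCGC or TTTGCCGC on either strand).
Mycn: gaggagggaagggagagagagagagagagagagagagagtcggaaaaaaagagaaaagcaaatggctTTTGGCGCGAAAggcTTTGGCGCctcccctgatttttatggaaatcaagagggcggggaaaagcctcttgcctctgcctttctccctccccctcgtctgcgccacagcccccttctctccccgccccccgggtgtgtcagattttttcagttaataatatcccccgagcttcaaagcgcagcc
Mxd3: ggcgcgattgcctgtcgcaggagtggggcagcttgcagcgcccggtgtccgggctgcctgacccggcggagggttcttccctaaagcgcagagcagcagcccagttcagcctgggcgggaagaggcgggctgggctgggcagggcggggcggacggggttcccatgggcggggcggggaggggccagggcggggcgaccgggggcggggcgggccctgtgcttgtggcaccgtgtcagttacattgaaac
Mycn held 3 matches, the first base of each at -183, -179 and -168 with the start base counted as 0, and the first 2 of these overlap in 1 run of capitals. Mxd3 held 0 matches. Of 32851 RefSeq promoters (250 bases before the start and 50 from it on), 2.26% held at least 1 such octamer, and of 11 promoters of 9 network genes only that of Mycn did. Myc had no promoter in this set, so it was not scanned for these octamers or for the E-box.

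The E-box CACGTG, which MYC and its competitors share, lay in the promoters of 4 of the 9 network genes scanned, which leave out Myc. These 60-base stretches are shown because they carry the network's own binding letters, in capitals, at Max (chr12:76962246-76962305, minus strand), Mnt (chr11:74830774-74830833, plus strand), Mxd4 (chr5:34187897-34187956, minus strand) and Mlx (chr11:101087223-101087282, plus strand).
Max: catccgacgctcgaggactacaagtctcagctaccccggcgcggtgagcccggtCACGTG
Mnt: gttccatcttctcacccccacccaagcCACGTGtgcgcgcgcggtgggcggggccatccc
Mxd4: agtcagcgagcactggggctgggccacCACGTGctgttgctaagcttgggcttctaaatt
Mlx: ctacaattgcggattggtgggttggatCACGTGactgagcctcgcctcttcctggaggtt
The motif was present in 4 of the 11 network promoters, in 12 of 40 promoters of the MYC-induced genes listed below, and in 7.15% of all 32851 promoters. At Max it spans the start site, with its first base at -3. The other positions were -123 at Mnt, -219 at Mxd4 and -40 at Mlx. A match is a description of the letters and does not show binding.

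Values below are FPKM (fragments scaled by transcript length and library size, as deposited by the authors) divided by a factor for each library that sets the median gene level, with 2 libraries in each group. Differences are tumour minus normal on the log2(scaled FPKM + 1) scale, with their standard error (SE), and adjusted p-values are from limma with Benjamini-Hochberg adjustment over 13162 genes tested. The Cufflinks intervals imply a depth of 986717 fragments for normal 1, 1580686 for normal 2, 1435619 for tumour 1 and 1143599 for tumour 2. The 5 prostate secretion markers summed here were all lower in both tumours (3 of them called), with a summed level of 445193 and 520151 in the normal prostates, 3.56 in tumour 1 and 2813 in tumour 2, and Pbsn and Spink1 were listed at 0 in tumour 1. The summed luminal markers stood at 1607 and 1837 in normal tissue against 601 and 1571, and those of basal epithelium at 74.9 and 71.1 against 2.52 and 55.6, so tumour 1 had the lowest sum of all 3 lists. The luminal and basal sums join genes that went opposite ways. Of the 7 luminal genes, 5 were lower in both tumours and 1 higher, with Spdef and Tmprss2 listed at 0 in tumour 1. Of the 5 basal genes, 4 were lower in both tumours and 1 (Krt17) higher. Krt5, Krt14, Krt15 and Trp63 were listed at 0 in tumour 1, and Krt17 made up most of the basal sum in tumour 2. In bulk tissue, fewer cells of a type and less RNA per cell cannot be told apart.

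All 10 genes passed the filter on low values and were tested, 9 of them reaching an FPKM of 1 in every library before scaling and Mycn through the tumours alone. With limma, 1 gene (Myc) fell, 0 rose and 9 did not pass, where 8.27% of all genes tested were called lower, 9.85% higher and 18.1% in either direction. Before adjustment, 1 gene (Myc) was lower and 2 (Mycn and Mxd3) were higher at p under 0.05, against 18.3% and 21.5% of all genes tested, and voom on the implied fragments called 0 in either direction. Both tumours lay above both normal prostates for 4 genes (Mycn, Mxd1, Mxd3 and Mnt) and below them for 4 (Myc, Max, Mxd4 and Mxi1, the last narrowly), where 37.7% of genes tested lay above and 33.3% below. The median difference of the 10 genes was -0.15, against 0.07 for all genes tested.

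**Figure D1:**
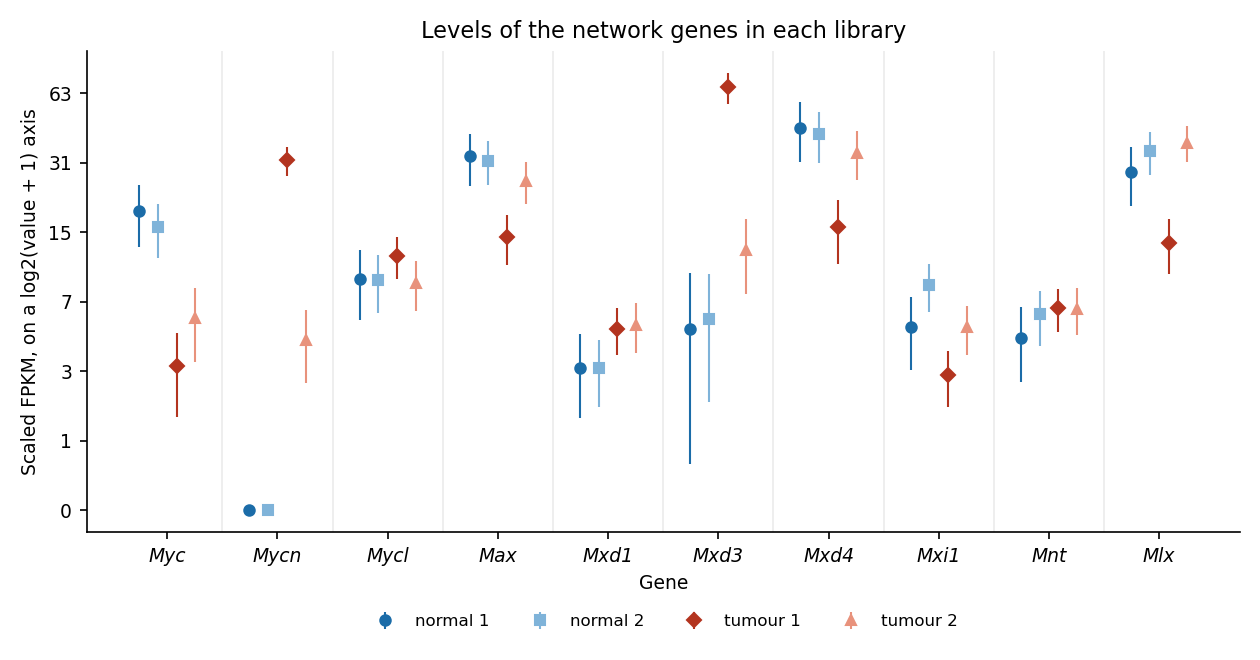
Scaled FPKM of the 10 network genes (vertical axis, log2(value + 1) spacing) in each of the 4 libraries, with vertical lines for the Cufflinks interval of each value, which covers the authors' measurement error and not the spread between animals. Mycn is at 0 in both normal prostates and at 31.8 and 4.47 in the tumours, and Mxd3 in tumour 1 is the highest point at 67.0.

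Among the MYC genes, Myc was lower in the tumours and Mycn was listed above 0 only there. Myc (chromosome 15, 61985341 to 61990361, mm10) was at 18.7 in normal 1, 15.8 in normal 2, 3.20 in tumour 1 and 5.76 in tumour 2. Both tumours lay well below both normal prostates, and the normal pair was close together. Myc fell, with a log2 difference of -1.77 (SE 0.42) and an adjusted p of 0.0495, which is 3.41-fold lower in the tumours with a 95% interval from -2.86 to -0.68 for the log2 difference. Behind these values stood 40.8 and 50.4 implied fragments in the normal pair and 14.6 and 23.6 in the tumour pair. The call sat at the threshold: it was lost under 7 of 9 alternatives that used all 4 libraries, among them FPKM as deposited (-0.94, adjusted p = 0.177). It was also lost without normal 1 (-1.65, adjusted p = 0.344), without normal 2 (-1.88, adjusted p = 0.317) and without tumour 1 (-1.43, adjusted p = 0.0888), although the difference stayed negative in all 13 alternatives.

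Mycn (chromosome 12, 12936093 to 12941836) had an FPKM of 0 in each normal library and reached 31.8 in tumour 1 and 4.47 in tumour 2. Tumour 1 thus held 7.11 times the level of tumour 2, and this gap was wider than that of 95.1% of genes tested. The tumour values rested on 179 and 22.0 implied fragments, so both were counted well above 0. Mycn did not pass the threshold (log2 difference 3.74, SE 0.91, adjusted p = 0.0520), and this difference depends on the pseudocount because the normal values are 0. It passed with FPKM as deposited (4.20, adjusted p = 0.0336) and with a pseudocount of 0.1 (6.91, adjusted p = 0.0320) or 0.5 (4.66, adjusted p = 0.0435). It also passed without tumour 1 (2.45, adjusted p = 0.00603) or without tumour 2 (5.03, adjusted p = 0.0116), but with 1 tumour left the spread comes from the normal pair alone, both at 0, so these fits say nothing about the stability of the result. In level, Mycn stood above 84.9% of genes tested in tumour 1 and above 30.9% in tumour 2.

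Mycl (chromosome 4, 122995931 to 123002480), the third MYC gene, was at 9.01 and 8.95 in the normal prostates and at 11.6 and 8.67 in the tumours. The groups overlapped, and the log2 difference was 0.14 (95% interval -0.80 to 1.09, adjusted p = 0.789). Its sign turned without tumour 1 (-0.05). Because FPKM correct for length, the 3 genes can be set beside each other within a library, where no scaling between libraries enters. Myc made up 67.4% and 63.8% of their summed FPKM in the normal prostates, 6.87% in tumour 1 and 30.5% in tumour 2. The share of Mycn was 0 in both normal prostates, 68.2% in tumour 1 and 23.6% in tumour 2. That of Mycl was 32.6% and 36.2% in normal tissue, 24.9% in tumour 1 and 45.9% in tumour 2. By value the leading MYC transcript was therefore Myc in the normal prostates, Mycn in tumour 1 and Mycl in tumour 2. In tumour 2 the Cufflinks interval of Mycl (9.47 to 16.6 FPKM before scaling) overlapped those of Myc (5.10 to 12.2) and Mycn (3.85 to 9.58). In normal 2 those of Myc (7.81 to 13.9) and Mycl (4.25 to 8.08) also met narrowly. The order in these libraries is therefore not settled. The summed scaled FPKM of the 3 genes was 27.7 and 24.7 in normal tissue, 46.6 in tumour 1 and 18.9 in tumour 2, on both sides of the normal values.

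**Figure D2:**
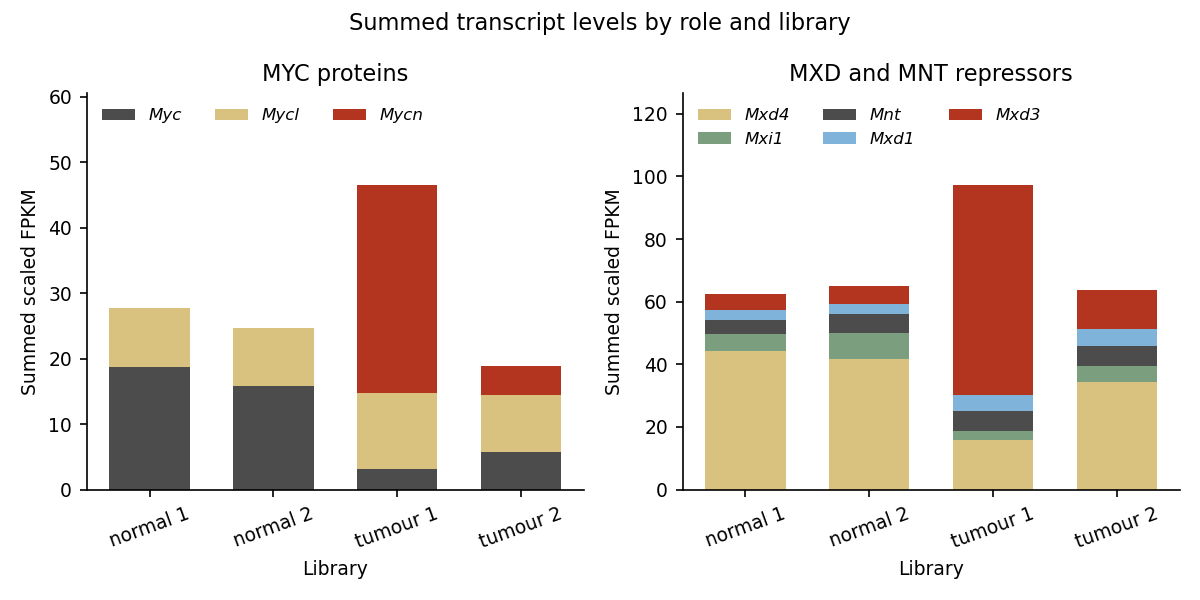
Summed scaled FPKM in each library (bars from 0) of the 3 MYC genes on the left and of the 5 MXD and MNT genes on the right, coloured by gene. Mycn holds 68.2% of the MYC bar and Mxd3 holds 68.9% of the repressor bar in tumour 1, while in tumour 2 they hold 23.6% and 19.5%.

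Max (chromosome 12, 76937269 to 76962248), the common partner, was at 33.0 and 31.6 in the normal prostates, 14.2 in tumour 1 and 25.7 in tumour 2. Both tumours were lower, tumour 1 more so, but Max did not pass (-0.72, SE 0.38, adjusted p = 0.219). With FPKM as deposited its sign turned (0.18), and without tumour 2 the difference was -1.13. The ratio of Myc to Max within a library, which no scaling between libraries can move, was 0.565 and 0.4996 in normal tissue and 0.225 and 0.224 in the tumours. Mycn stood at 2.23 times Max in tumour 1 and at 0.174 times Max in tumour 2. The summed MYC genes were at 0.838 and 0.783 times Max in normal tissue, 3.27 times in tumour 1 and 0.734 times in tumour 2, so tumour 1 differed from the other 3 libraries. With 2 libraries against 2 no two-sided exact permutation p can go below 0.333, and these ratios carry no test.

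Among the repressors, Mxd3 and Mxd4 differed in opposite directions. Mxd3 (chromosome 13, 55325168 to 55329730), an MXD protein known from cycling cells, was at 5.09 and 5.74 in the normal prostates, 67.0 in tumour 1 and 12.4 in tumour 2. Both tumours were higher, and tumour 1 held 5.40 times the level of tumour 2. Mxd3 did not pass (log2 difference 2.24, SE 0.82, 95% interval 0.11 to 4.36, adjusted p = 0.114). It passed with FPKM as deposited (3.08, adjusted p = 0.0459). The difference was 3.41 without tumour 2 and 1.06 without tumour 1. The normal values rested on 5.12 and 9.09 implied fragments and the tumour values on 162 and 26.6. Mxd3 shares 105 bases with Prelid1 on the opposite strand, and as the counting is not stated to use strand, reads there cannot be told apart. Prelid1, a mitochondrial lipid transfer protein, fell (-1.20, adjusted p = 0.0468), from 161 and 163 to 82.6 and 59.2, though with FPKM as deposited it was at -0.27 (adjusted p = 0.447). The Prelid1 call was lost in 6 of 9 alternatives that used all 4 libraries.

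Mxd4 (chromosome 5, 34176580 to 34187710), an MXD protein known from differentiated cells, was at 44.3 and 41.6 in the normal prostates, 15.9 in tumour 1 and 34.3 in tumour 2. It had the highest level of the 10 genes in both normal libraries. Both tumours were lower, and the difference did not pass (-0.85, SE 0.43, adjusted p = 0.209). Its sign turned with FPKM as deposited (0.06), and without tumour 2 the difference was -1.38. The ratio of Mxd3 to Mxd4 within a library was 0.115 and 0.138 in the normal prostates, 4.23 in tumour 1 and 0.361 in tumour 2. Both tumours lay above both normal prostates in this ratio under any scaling.

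Mxi1 (chromosome 19, 53310506 to 53375810), also called MXD2, was at 5.22 and 8.42 in the normal prostates and at 2.84 and 5.18 in the tumours. Normal 1 and tumour 2 were nearly level, and Mxi1 did not pass (-0.65, SE 0.48, adjusted p = 0.357), with a turned sign under FPKM as deposited (0.14). Mxd1 (chromosome 6, 86647045 to 86669159), an MXD protein of terminal differentiation, was at 3.13 and 3.11 against 5.10 and 5.34. Each pair was tight and the tumours were higher, yet the difference of 0.59 (SE 0.39, adjusted p = 0.306) was small beside the spread that limma assigns at that level. Mnt (chromosome 11, 74830924 to 74845725), a MAX-bound repressor found in most cell types, was at 4.57 and 6.04 against 6.50 and 6.43 (0.25, 95% interval -0.76 to 1.27, adjusted p = 0.658). The 5 repressors summed to 62.3 and 64.9 in the normal prostates, 97.3 in tumour 1 and 63.7 in tumour 2. Tumour 2 thus fell between the normal values, and Mxd3 alone made up 68.9% of the sum in tumour 1 against 8.17% and 8.85% in normal tissue.

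Mlx (chromosome 11, 101087290 to 101092207), the MAX-like partner, was at 28.2 and 34.8 in the normal prostates, 13.3 in tumour 1 and 38.1 in tumour 2. The tumours lay on either side of the normal values, and Mlx did not pass (-0.45, 95% interval -1.87 to 0.97, adjusted p = 0.573). The sign turned with FPKM as deposited (0.46) and without tumour 1 (0.27). Mlx shares 67 bases with Psmc3ip on the opposite strand. Psmc3ip, a meiotic recombination factor, rose (1.82, adjusted p = 0.0446) from 7.25 and 11.5 to 43.4 and 27.8. This call was lost in 4 of 9 alternatives that used all 4 libraries.

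**Figure D3:**
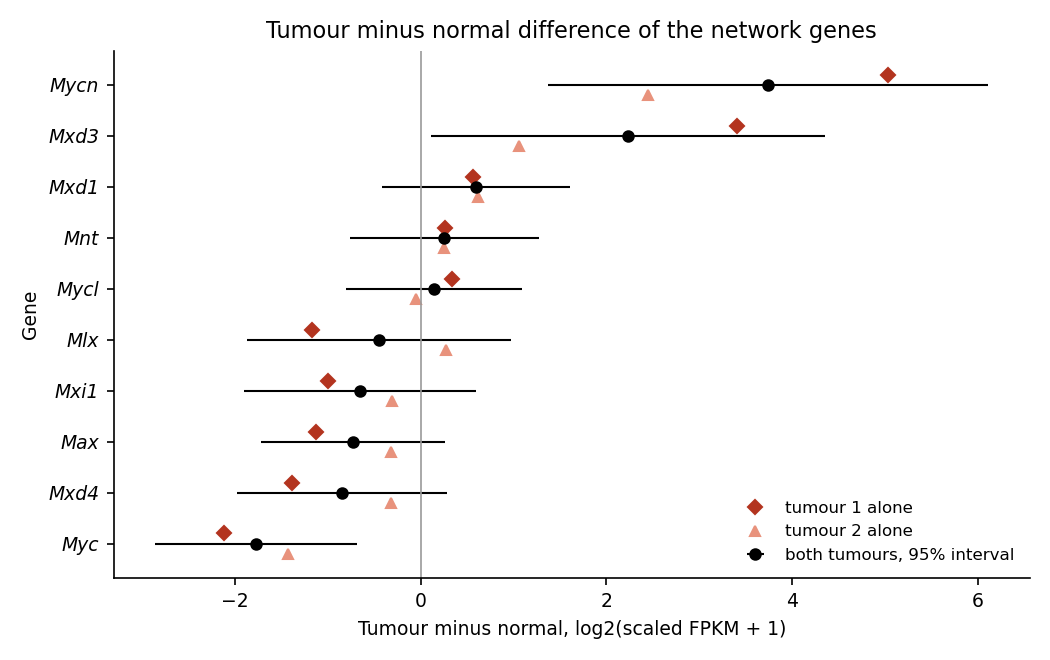
Tumour minus normal difference on the log2(scaled FPKM + 1) scale (horizontal axis) for each network gene (vertical axis, ordered by difference), with black points and lines for both tumours and their 95% interval from limma, and coloured points for each tumour against the normal mean. Mycn at 3.74 and Mxd3 at 2.24 have the widest intervals and the widest gaps between the tumours, and Myc at -1.77 lies below 0 in both.

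The order of levels differed between the libraries. In the normal prostates Mxd4, Max and Mlx came first, followed by Myc and Mycl, and Mxi1, Mnt, Mxd3 and Mxd1 formed the low end above Mycn. Max and Mlx exchanged places between normal 1 and normal 2, as did Mnt and Mxd3, so these neighbours do not differ beyond their spread. Tumour 1 began with Mxd3 and Mycn, both above Mxd4, Max and Mlx (15.9, 14.2 and 13.3), and had Myc and Mxi1 last at 3.20 and 2.84. Tumour 2 kept Mlx, Mxd4 and Max at the top and had Mycn last. The tumour pair differed more than the median gene tested for 7 of the 10 network genes, while Mnt and Mxd1 differed between the tumours by less than nearly all genes (1.91% and 5.48% of genes tested had a smaller gap). Over all genes tested the log2 difference within a pair had a standard deviation of 1.24 in the tumours and 0.61 in the normal prostates.

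Markers of other cell populations differed between the same libraries. Beside the counts below, 37.7% of all genes tested were higher in both tumours and 33.3% lower. Neuroendocrine markers (Chga, Syp, Scg2, Scg5, Insm1, Foxa2 and Ncam1) summed to 5.94 and 3.62 in the normal prostates and to 461 and 647 in the tumours, with 6 of the 7 higher in both tumours. Chga, Scg2, Scg5 and Foxa2 were listed at 0 in both normal prostates and Foxa2 in tumour 1. The 6 cycling markers summed to 34.6 and 38.8 in normal tissue, 1206 in tumour 1 and 568 in tumour 2, with all 6 higher in both tumours and Ccnb1 listed at 0 in both normal prostates. Smooth muscle markers went the other way, all 6 lower in both tumours, at 631 and 586 against 3.86 and 113, with Myh11, Cnn1 and Actg2 listed at 0 in tumour 1. The 5 macrophage markers summed to 7.07 and 10.97 against 110.2 and 254, with Cd68 listed at 0 in both normal prostates. Of the 5, 2 were higher in both tumours, near the share of all genes tested. Fibroblast markers summed to 123 and 99.0 against 50.4 in tumour 1 and 376 in tumour 2. Of the 6, 4 were higher in both tumours and 0 lower in both, so the low sum of tumour 1 went against most of the list. Endothelial markers summed to 7.21 and 3.81 against 1.51 and 25.01, with 1 of the 5 higher in both tumours and 0 lower in both. The 4 seminal vesicle markers were listed at 0 throughout. The order of the tumours was that of Mycn and Mxd3 for the cycling markers and the reverse for the neuroendocrine markers, and the part of these cell populations in the network's values was not tested.

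Chromosomal neighbours within 1000000 bases numbered 1 tested gene for Myc, 3 for Mycn and 15 for Mycl. Ddx1, an RNA helicase gene often co-amplified with MYCN in human neuroblastoma, was at 23.4 and 25.3 in the normal prostates against 49.8 and 48.8 (0.99, adjusted p = 0.0617). Unlike Mycn, it was level between the tumours. Nbas, a gene of Golgi-to-ER transport, was at 6.88 and 7.26 in normal tissue and at 4.99 and 8.22 in the tumours. Fam49a, like Mycn, passed the filter on low values through the tumours alone. It rose (2.13, adjusted p = 0.0379) from 0.611 and 0 to 4.16 and 5.02. This call was lost in 3 of the 8 alternatives that used all 4 libraries and tested the gene. Next to Myc, the long noncoding gene Pvt1 was at 0.973 and 3.51 against 5.61 and 2.37 (adjusted p = 0.467), and its groups overlapped. Of the 15 tested neighbours of Mycl, 0 rose and 2 fell, where 9.85% of all genes tested were called higher and 8.27% lower. Trit1, a transfer RNA modifying enzyme, fell (-2.45, adjusted p = 0.0245) from 32.8 and 28.2 to 3.89 and 5.76. Mfsd2a, a lysolipid transporter, fell (-2.62, adjusted p = 0.0307) from 7.17 and 7.12 to 0 and 0.749. Of the alternatives that used all 4 libraries and tested the gene, 1 of 9 lost the Trit1 call and 2 of 8 the Mfsd2a call.

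The genes whose levels over the 4 libraries came closest to those of Mycn, by Euclidean distance of the log2 values, were Add2 (distance 0.158), Lrrn1 (0.294) and Negr1 (0.309). Add2 encodes an adducin of the membrane skeleton and Negr1 a neuronal adhesion protein. All 3 were listed at 0 in both normal prostates and ran from 27.6 to 31.6 in tumour 1 and from 3.69 to 5.77 in tumour 2. Those closest to Myc were Polm (0.253), a DNA polymerase gene, Gm38426 (0.255) and Arhgef18 (0.278). With 4 libraries such likeness is a description of these samples.

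Other genes that act on the network were taken from a list of MYC cofactors, regulators and relatives, of which 31 were in the tables and 30 were tested. Of these 4 rose, 1 fell and 25 did not pass, against 9.85% of all genes tested called higher and 8.27% lower, with a median difference of 0.51 against 0.07. Aurka, the mitotic kinase that stabilises MYCN protein, was at 3.85 and 2.60 in the normal prostates and at 56.6 and 29.8 in the tumours. The groups were far apart, and Aurka rose by 3.33 (SE 0.45, adjusted p = 0.0223), a call kept in all 9 alternatives that used the 4 libraries. Ruvbl1 (2.18, adjusted p = 0.0313) and Ruvbl2 (1.87, adjusted p = 0.0446), the paired ATPases of MYC-bound chromatin complexes, rose from 7.05 and 5.64 to 40.7 and 25.4 and from 11.4 and 14.5 to 68.8 and 36.0. The Ruvbl1 call was lost in 2 and the Ruvbl2 call in 4 of those 9 alternatives. Hdac2, a histone deacetylase that SIN3 complexes carry, rose by 1.75 (adjusted p = 0.0496), a call lost in 6 of those 9 alternatives. Sin3b, a scaffold that MXD proteins bind, was the gene that fell, from 90.5 and 107 to 13.8 and 26.0 (-2.32, SE 0.39, adjusted p = 0.0282), and with FPKM as deposited it was at -1.40 (adjusted p = 0.0642).

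Its paralog Sin3a was at 7.72 and 8.18 in the normal prostates against 16.7 and 14.0 (0.87, adjusted p = 0.129). Sin3b thus stood above Sin3a in both normal prostates and in tumour 2, and by value below it in tumour 1. There the Cufflinks interval of Sin3b (12.4 to 24.6 FPKM before scaling) holds the value of Sin3a, so their order in tumour 1 is not settled. Among the remaining bHLH relatives, Mga, a MAX partner in a variant Polycomb complex, was at 3.73 and 3.61 against 9.38 and 7.33 and did not pass (0.99, adjusted p = 0.132). Mlxip, the MLX partner MondoA, overlapped between groups (5.25 and 5.36 against 3.84 and 5.37, adjusted p = 0.762). Mlxipl, the carbohydrate-response partner of MLX, was too low to be tested, between 0.240 and 1.35.

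With FPKM as deposited 15 of the 30 rose and 0 fell, among them Mga (1.78), and of all genes tested 28% were then called higher and 3.24% lower. The scaling factors put the tumours 0.94 lower on the log2 scale than the deposited values do. Without normal 1 or without normal 2, limma called 0 of all genes tested in either direction (at an unadjusted p under 0.05, 1204 and 1248 higher and 958 and 928 lower), so no call given here was kept there. With 1 tumour left, the spread comes from the normal pair alone, so a call kept there is no test of stability. Among the calls lost without tumour 1 were those of Aurka (2.88), Cdkn1b (2.56) and Sin3b (-1.88). Without tumour 2, the calls of Odc1 (-1.58), Psmc3ip (2.13) and Fam49a (2.02) were lost.

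Among genes that MYC is known to induce, 41 were tested, of which 2 rose, 3 fell and 36 did not pass, against 9.85% of all genes tested called higher and 8.27% lower. The median difference was 0.53 against 0.07 for all genes tested, at 0.60 in tumour 1 and 0.29 in tumour 2. Both tumours lay above both normal prostates for 21 of the 41 and below them for 11, where 37.7% and 33.3% of all genes tested did so. The genes that rose were Nop56 (1.45, adjusted p = 0.0498), a box C/D small nucleolar ribonucleoprotein whose call was lost in 6 of the 9 alternatives that used the 4 libraries, and Ldha (1.27, SE 0.26, adjusted p = 0.0402), lactate dehydrogenase A. Ldha was at 247 and 256 in the normal prostates and at 515 and 714 in the tumours, and its call was lost in 3 of those 9 alternatives. The genes that fell were Odc1, Srm and Ccnd2. Odc1, ornithine decarboxylase and a classical MYC target, was at 132 and 180.1 against 51.0 and 46.4 (-1.65, SE 0.28, adjusted p = 0.0285). Srm, the spermidine synthase, was at 152 and 137 against 45.1 and 39.1 (-1.76, SE 0.25, adjusted p = 0.0230). With FPKM as deposited both missed the threshold, Odc1 at -0.71 (adjusted p = 0.0820) and Srm at -0.83 (adjusted p = 0.0690). Both enzymes make polyamines, which prostate tissue produces in large amounts. Ccnd2, cyclin D2, was at 5.18 and 3.96 against 0.297 and 0.698 (-1.90, adjusted p = 0.0409).

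Ncl and Cad, also classical targets, did not pass. Ncl, the nucleolar protein nucleolin, was at 31.7 and 30.2 in the normal prostates against 63.7 and 38.0 (0.65, adjusted p = 0.223). Cad, the first enzyme of pyrimidine synthesis, was at 13.6 and 18.8 against 12.3 and 11.01 (-0.42, adjusted p = 0.403), with a turned sign under FPKM as deposited (0.45). With FPKM as deposited 19 of the 41 rose and 0 fell, where 28% of all genes tested were called higher and 3.24% lower. Quantile normalization gave 5 rises, where it called 891 of all 13162 genes tested higher.

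Genes that MYC is known to repress included 3 that rose, 0 that fell and 7 that did not pass among 10 tested, against 9.85% of all genes tested called higher and 8.27% lower. Cdkn1b, the cyclin-dependent kinase inhibitor p27, was at 11.1 and 8.30 in the normal prostates and at 95.7 and 61.7 in the tumours. It rose by 2.88 (SE 0.36, adjusted p = 0.0210) and kept its call in all 9 alternatives that used the 4 libraries. Cdkn1c, the related inhibitor p57, rose by 2.16 (adjusted p = 0.0368) from 4.38 and 5.92 to 35.1 and 19.7. Ndrg1, a stress- and differentiation-induced gene, rose by 2.37 (adjusted p = 0.0282) from 2.42 and 1.88 to 13.6 and 17.0. The Cdkn1c call was lost in 2 and the Ndrg1 call in 1 of those 9 alternatives. The median of this list was -0.03.

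Of 6 tested targets of MLX complexes, 0 passed with limma or with voom in either direction, while 4 had an unadjusted p under 0.05, all higher in the tumours, where 21.5% of all genes tested were so. These were Thrsp (2.66, adjusted p = 0.0579), Acaca (1.44, adjusted p = 0.101), Klf10 (1.22, adjusted p = 0.115) and Fasn (0.91, adjusted p = 0.1001), of which Acaca and Fasn are enzymes of fatty acid synthesis. The list's median difference was 1.07 against 0.07 for all genes tested. Txnip, the thioredoxin-interacting protein that MLX and MLXIP induce with glucose, was at 154 and 170 in the normal prostates, 3.50 in tumour 1 and 100.3 in tumour 2. Tumour 1 stood apart from the other 3 libraries, and the difference did not pass (-2.93, SE 1.46, adjusted p = 0.1997). It was -0.68 without tumour 1 and -5.18 without tumour 2. Mlx itself was lower in tumour 1 as well, at 13.3 against 28.2 to 38.1 in the other libraries. Max (14.2) and Mxd4 (15.9) were also at their lowest there, and a link between Mlx and Txnip was not tested.

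**Figure D4:**
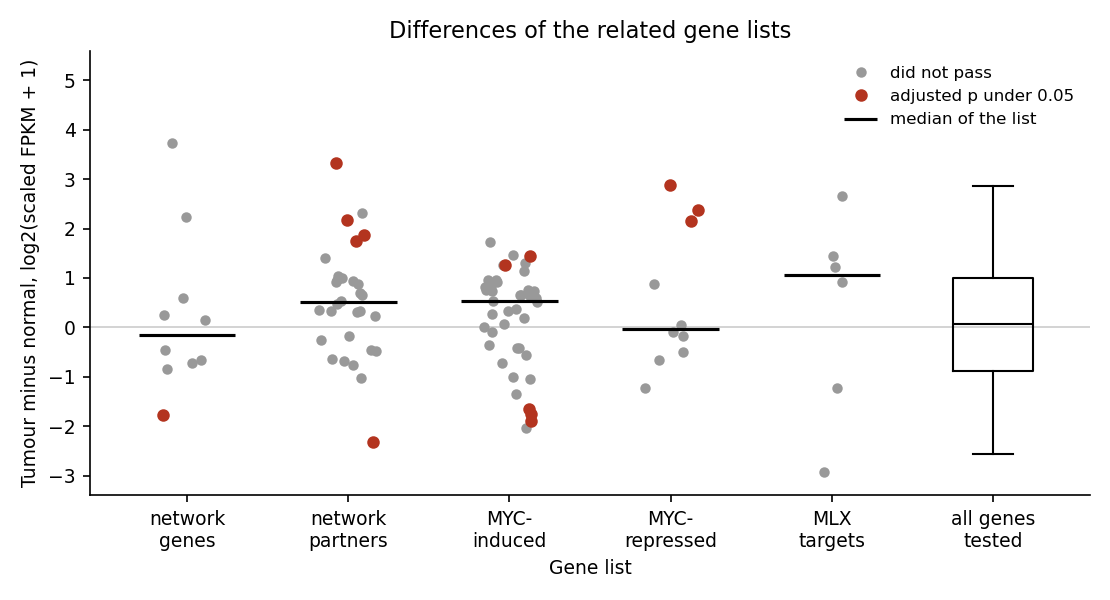
Tumour minus normal difference on the log2(scaled FPKM + 1) scale (vertical axis) of every tested gene in the network and in the 4 related lists, with red points for an adjusted p under 0.05 and black lines for list medians, beside a box of all 13162 genes tested (quartiles, with whiskers from the 5th to the 95th percentile). The MYC-induced genes have 2 red points above and 3 below 0, and their median is 0.53.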

How the data were processed

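The authors deposited 1 Cufflinks gene table per library with FPKM and the bounds of its interval. Cufflinks 2.1.1, TopHat2 2.0.8, Trim Galore, mm10 and Cuffdiff 2.1.1 are named per the submitters' processing notes. Their settings, the annotation and any use of strand were not given in the sources used. Deposited starts were 1 below the RefSeq starts for 14153 of 22813 genes matched by name and chromosome and equal for 731, so 1 was added. The 27 rows named as dates were left out and 817 rows of 280 repeated names were summed by name. Libraries were divided by median-of-ratios factors over 11469 genes listed above 0 in all 4 (0.793, 0.689, 1.34 and 1.50). Genes with FPKM of at least 1 in at least 2 libraries were tested on log2(value + 1) with limma 3.58.1 (R 4.3.3, intensity trend, two-sided, threshold 0.05), with 2 residual and 2.85 prior degrees of freedom. The script was tested on simulated data. FPKM are not counts: implied fragments come from the interval width, taken as 2 Poisson standard deviations above the value, and are too low where isoform uncertainty widens it. From 71.0% to 72.5% of rows with 1 start group and few fragments lay within 0.1 of a whole number.

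The members and lists were chosen with earlier results of these data known. Named were every network gene, network partners past the threshold plus Mga, Mlxip and Mlxipl, Odc1, Ncl, Cad and up to 3 of the largest rises and falls past the threshold among MYC-induced genes, called genes of the other lists plus Txnip, and the 3 genes nearest to Myc and to Mycn. Chromosomal and overlapping neighbours (Pvt1 among them), Sin3a, Thrsp, Acaca, Klf10, Fasn and the E2F-type octamers were chosen after values were seen. Alternatives covered scaling, pseudocount, filter, trend, voom and leaving out each library. Figures were drawn with matplotlib 3.10.9. Some marker genes are not reported here and were left out of the marker sums.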

Additional observations from a re-analysis of the deposited data

How the results depend on the processing

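No paired analysis was possible because the labels give no replicate numbers or shared animals across the groups. With FPKM as deposited the calls over all genes were 3681 higher and 427 lower, against 1296 and 1088. Higher calls were then 2 among network genes, 15 among network partners, 19 among MYC-induced genes and 4 among MLX targets, and lower calls were 0 in the network, partner and MYC-induced lists. Under that setting Myc was at -0.94, Mycn at 4.20 and Mxd3 at 3.08, and the sign turned for Max (0.18), Mxd4 (0.065), Mxi1 (0.14), Mlx (0.46), Cad (0.45), Nbas (0.70) and Mlxip (0.60). Myc lost its call with upper quartile scaling (-1.73), pseudocounts of 0.1 (-1.97) and 0.5 (-1.88), no filter on low values (-1.77), no intensity trend (-1.77) and voom (-2.07), which leaves 0 network genes called lower in each, and kept it under quantile normalization (-1.81) and the stricter filter (-1.77). Mycn passed with pseudocounts of 0.1 (6.91) and 0.5 (4.66), which gives 1 network gene called higher in each. The stricter filter gave 801 higher calls over all genes, and no filter gave 245 higher and 249 lower. Without the filter, higher calls were 1 among partners, 0 among MYC-induced and 1 among MYC-repressed genes, and lower calls were 0 among partners and 1 among MYC-induced genes. Partners called higher were 2 with a pseudocount of 0.1, 2 without the trend and 1 by voom. MYC-induced genes called higher were 5 under quantile normalization, 1 with either pseudocount, 0 without the trend and 0 by voom. Over all genes, higher calls were 891 under quantile normalization, 1210 without the trend and 1047 by voom. With pseudocounts of 0.1 and 0.5 they were 1306 and 1338. The causes of these changes were not tested.

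Leaving out 1 library at a time, calls over all genes ranged from 0 to 1852 higher and from 0 to 1923 lower; both were 0 with limma without normal 1 and without normal 2, when 1204 and 1248 genes had an unadjusted p under 0.05 on the higher side. Network genes called ranged from 0 to 2 higher and from 0 to 3 lower, partners from 0 to 6 and from 0 to 1, MYC-induced genes from 0 to 7 and from 0 to 5, MYC-repressed genes from 0 to 4 and from 0 to 1, and MLX targets called lower from 0 to 1. In these fits the spread comes only from the pair that was left whole, so the counts do not measure stability. The log2 differences ranged from -2.11 to -1.43 for Myc, 2.45 to 5.03 for Mycn, -0.046 to 0.34 for Mycl, -1.13 to -0.32 for Max, 1.06 to 3.41 for Mxd3, -1.38 to -0.31 for Mxd4, -1.17 to 0.27 for Mlx, -0.38 to 0.017 for Mlxip and -0.43 to 0.19 for Nbas. Mnt and Mxd1 kept their sign and did not pass under any alternative that could be run; Mxd1 has no value under the stricter filter. Depth limits Mxd3 in normal tissue, at 5.12 and 9.09 implied fragments.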
